A study of Mus musculus with 6 samples.

Results

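The genes of the unfolded protein response and of protein folding in the endoplasmic reticulum (ER) were followed in mouse gut. They are the rows of the deposited tables that carry any of 31 gene names, chosen by name from ER chaperones, stress sensors and ER-associated degradation. These names took 32 of 56362 rows, since the name Ddit3 stood on a second row as well. The libraries came from the intestine of balb/c mice, 3 of wild type and 3 labelled as FcεRIα knockout (FC), which lack a subunit of the IgE receptor on mast cells and basophils, with 1 library per mouse according to the design text. All 6 sample titles include the letters DSS without expanding them, and the series title speaks of epithelial cells where the tissue label reads intestine. The labels do not say how the knockout was made, nor the age of the mice.

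Proteins bound for secretion or for membranes fold in the ER lumen with the help of chaperones, lectins and disulfide isomerases. When folding falls behind, the membrane sensors IRE1 (genes Ern1 and Ern2), PERK (Eif2ak3) and ATF6 start the unfolded protein response. IRE1 splices the messenger RNA of the transcription factor XBP1, PERK slows translation and favours ATF4, and ATF6 is cut to release a transcription factor, and the outcome is more chaperones and more ER-associated degradation. In the gut this system is best known from cells that secrete heavily, the goblet, Paneth and plasma cells, and IRE1 beta (Ern2) is the form found in mucus-secreting epithelium. A gene-level count does not tell spliced from unspliced Xbp1, so sensor activity itself was not measured.

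Many of these genes share a promoter element, the ER stress response element (ERSE), which ATF6 and XBP1 are known to use with the factor NF-Y. It was searched on both strands of windows of 300 bases (250 before the annotated gene start to 50 after; RefSeq, GRCm38.p6), which 26 of the 31 genes matched. Hyou1, Manf, Ern2, Atf6 and Derl1 had no entry. The ERSE, spelled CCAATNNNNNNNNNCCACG, lay in the windows of 9 of the 26 genes, against 37 of 27025 genes with a window, or 0.137%. A shorter form, ERSE-II, spelled ATTGGNCCACG, lay in Dnajb11 and Herpud1 and in 0.0444% of all genes. Both forms hold the letters CCACG, which alone lay in 20 of the 26 and in 35.5% of all genes. Neither TGACGTGG, a site for XBP1 and ATF6, which lay in 0.714% of all genes, nor TGATGNAAT, a form of the ATF4 element, which lay in 1.08%, was found in these 26 windows. Only exact matches to the fixed letters were searched, so variants of an element were not counted. Among the chaperone and isomerase genes with a window, Dnajb9, Sdf2l1, Pdia3 and Pdia4 held no exact match to either ERSE form. Syvn1, Derl3 and Herpud1, which held one, act in degradation. The matches are shown because levels of the genes that hold them are compared further on, read 5′ to 3′ on the strand of the match, with the fixed letters in capitals.
Hspa5: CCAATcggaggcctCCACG
Hsp90b1, match farther from the start: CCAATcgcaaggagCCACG
Hsp90b1, match nearer to the start: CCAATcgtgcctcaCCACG
Calr: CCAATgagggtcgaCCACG
Canx: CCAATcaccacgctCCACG
Creld2: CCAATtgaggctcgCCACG
Dnajc3: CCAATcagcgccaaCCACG
Pdia6: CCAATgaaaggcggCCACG
Syvn1: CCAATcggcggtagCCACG
Derl3: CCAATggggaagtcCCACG
Herpud1, ERSE-II: ATTGGgCCACG
Dnajb11, ERSE-II: ATTGGcCCACG

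The whole window is printed for Hspa5 (chr2:34771840-34772139, plus strand) and Hsp90b1 (chr10:86705395-86705694, minus strand), abundant chaperones whose levels are compared between the groups further on. The capitals mark the ERSE letters, in the second case once on each strand. The match in Hspa5 began 65 bases before the RefSeq start, and those in Hsp90b1 212 and 107 bases before it. GENCODE vM21, whose gene coordinates are given further on, places the outermost start of Hspa5 120 bases upstream of RefSeq's. The Hspa5 match begins 55 bases after that outermost start, and its place relative to exons was not examined. The GENCODE start of Hsp90b1 lies 65 bases upstream of RefSeq's, which leaves its matches 147 and 42 bases before it.
Hspa5 window: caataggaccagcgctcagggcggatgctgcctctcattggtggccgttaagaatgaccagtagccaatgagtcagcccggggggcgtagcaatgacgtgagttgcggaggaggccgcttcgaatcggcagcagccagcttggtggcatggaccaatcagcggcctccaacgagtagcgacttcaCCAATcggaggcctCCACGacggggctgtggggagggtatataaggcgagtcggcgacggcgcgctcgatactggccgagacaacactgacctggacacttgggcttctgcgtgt
Hsp90b1 window: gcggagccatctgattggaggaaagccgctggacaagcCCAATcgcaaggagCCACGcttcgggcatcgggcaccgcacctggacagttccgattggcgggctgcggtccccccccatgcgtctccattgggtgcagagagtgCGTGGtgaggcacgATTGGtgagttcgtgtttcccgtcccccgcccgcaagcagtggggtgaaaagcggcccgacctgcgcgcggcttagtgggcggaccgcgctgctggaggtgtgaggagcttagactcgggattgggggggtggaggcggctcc

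**Figure D1:**
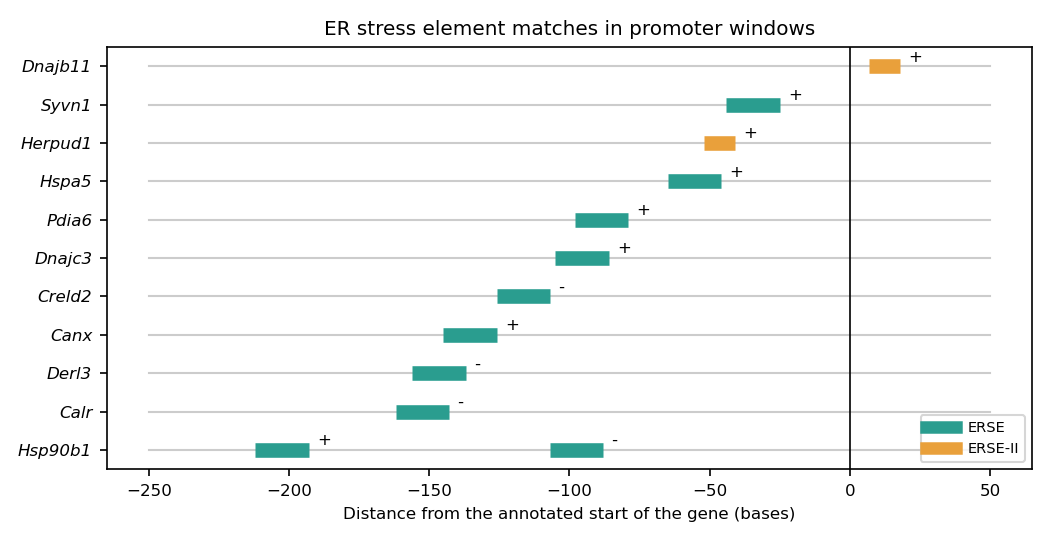
Positions of the ERSE (green) and ERSE-II (orange) matches in the promoter windows of the 11 genes that hold one, as the distance in bases from the RefSeq gene start, with the strand of the match relative to the gene beside each bar. By RefSeq the match of Dnajb11 lay after the start, from base 7, and the others before it.

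Depth was 19031833 to 23092382 counts per library. Levels are in CPM, counts scaled to a common TMM-adjusted total, and a count of 0 in 1 library allows up to 0.124 to 0.187 CPM (3 counts, counting error only). Wild type library 1 stood apart, with 10.3% of its counts in mitochondrially encoded genes against 2.54% to 3.64% in the others. Fcer1a, the targeted gene, had 0, 10 and 18 counts in the wild type mice and 1, 0 and 0 in the knockouts, which leaves the label of wild type library 1 unchecked by this gene. Markers of epithelium were abundant in every library, with a summed level over 15 genes of 30856, 15934 and 14954 CPM in the wild type mice and 27222, 26484 and 22892 CPM in the knockouts. Those of Paneth cells were near absent, at 3.84 to 16.6 CPM summed over 7 genes. The labels name no batch.

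Several lists of cell type markers leaned 1 way between the groups, although 0 of their genes passed edgeR's test. Of the 15 epithelial genes 14 lay higher in the knockouts (median log2 fold change 0.36), while all 10 fibroblast genes (median -0.62), all 9 endothelial genes (median -0.86) and all 12 plasma cell genes (median -0.56) lay lower. Macrophage genes went the other way from these, with 8 of 9 higher (median 0.30). Of 7 smooth muscle genes 3 lay higher and 4 lower (median -0.03). The summed fibroblast level was 498, 3706 and 4672 CPM in the wild type mice and 762, 2819 and 2042 CPM in the knockouts. That of endothelium was 107, 304 and 483 CPM against 88.5, 288 and 159 CPM. In both sums wild type library 1 and knockout library 1 were the lowest of the 6 and the groups overlapped, and no marker of either list was at 0 in any library. In whole tissue fewer cells of a type and less RNA per cell cannot be told apart, and the part of these markers in the levels of the chaperone and sensor genes was not tested.

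Chaperone genes of the ER lumen tended to lower levels in knockout gut and the sensor genes Ern1 and Ern2 to higher ones, but none of these genes passed the test. Of the 31 rows that passed the filter on low counts, 22 lay lower and 9 higher in the knockouts (median log2 fold change -0.14), beside 55.8% lower and a median of -0.05 over all 16732 genes tested. At an adjusted p under 0.05 (edgeR's quasi-likelihood test, Benjamini-Hochberg over all genes), 0 of the 31 were called, against 0% of all genes. The unadjusted p was under 0.05 for 5 of them, Ern1 and Ern2 higher and Hsp90b1, Pdia4 and Ppp1r15a lower, where 6.84% of all genes had such a p, 4.54% higher and 2.3% lower. DESeq2, which called 0.824% of all genes, called 0 of the 31, as did limma-voom. In 9 of the 31 every knockout library lay below every wild type library, or 29.0%, against 4.27% of all genes, and in 2 every knockout library lay above, against 8.73%. Without wild type library 1 the median was -0.02, 17 lay lower and 14 higher, and the groups parted in 10 genes downward and 7 upward, where 20.1% and 25.8% of all genes did so.

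**Figure D2:**
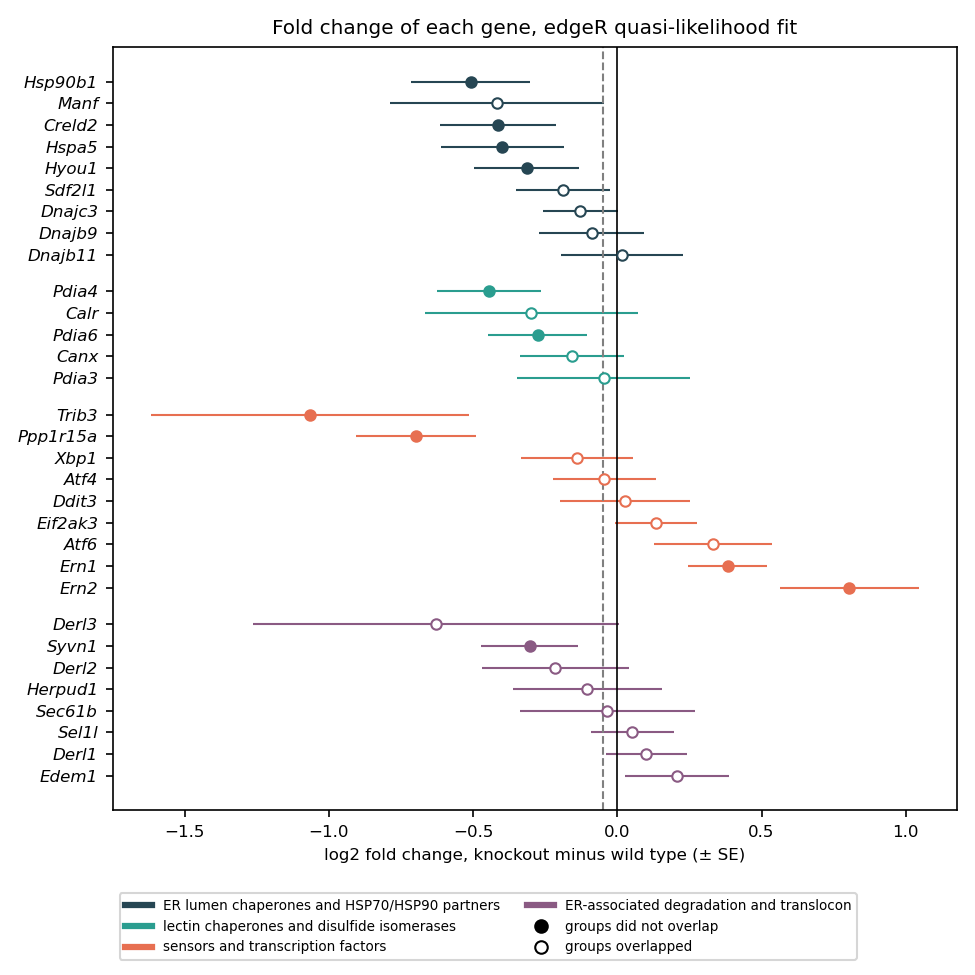
Log2 fold change (knockout minus wild type) with its SE for the 31 genes tested, by role, from edgeR's quasi-likelihood fit of 3 against 3 libraries. Filled points are genes whose groups did not overlap, and the dashed line is the median of all genes tested, -0.05. Most chaperones and isomerases lie left of 0, and Ern1 and Ern2 lie farthest to the right.

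Among the chaperones of the ER lumen, the most abundant ones lay lower. Hspa5 encodes BiP, the Hsp70 of the ER, which also holds the sensors inactive (chromosome 2, 34771970 to 34777547, plus strand, GENCODE vM21). It stood at 1406, 1133 and 1038 CPM in wild type mice 1, 2 and 3, and at 903, 881 and 929 CPM in the knockouts. All 3 knockout libraries lay below the lowest wild type library and close to each other. The log2 fold change was -0.40 (SE 0.21, edgeR adjusted p = 0.769). Hsp90b1, the Hsp90 of the ER (chromosome 10, 86690209 to 86705509, minus strand), stood at 1101, 1001 and 812 CPM in the wild type mice and 646, 669 and 732 CPM in the knockouts, again without overlap. Its log2 fold change was -0.51 (SE 0.21, edgeR adjusted p = 0.726). Exons of other annotated features overlap Hsp90b1 on both strands and its counts were fractional, so its level is less certain than that of Hspa5.

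Hyou1, a large Hsp70 relative that exchanges the nucleotide of BiP, was nearly constant in wild type, at 295, 292 and 288 CPM, and stood at 233, 192 and 278 CPM in the knockouts. Knockout library 3 came close to the wild type range, and the difference was -0.31 (SE 0.18) on the log2 scale. Creld2, a secreted ER stress protein, was at 168, 114 and 121 CPM in the wild type mice and 104, 87.3 and 111 CPM in the knockouts (log2 fold change -0.41, SE 0.20), with a narrow gap between the groups, and the fold change was -0.26 without wild type library 1. Manf, a factor retained with BiP and released under stress, had a fold change of similar size, -0.42 (SE 0.37), but this rested on wild type library 1. Its levels were 417, 191 and 164 CPM in the wild type mice against 197, 165 and 217 CPM in the knockouts. Without wild type library 1 its log2 fold change was 0.08.

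The co-chaperones of BiP differed little. Dnajb9, which targets misfolded proteins and represses IRE1, differed by -0.09 (SE 0.18), Dnajb11 by 0.02 (SE 0.21) and Dnajc3, the inhibitor P58IPK, by -0.13 (SE 0.13). Sdf2l1, which works with Dnajb11, differed by -0.19 (SE 0.16). The groups overlapped in all 4 genes. Their levels ran from 45.3 CPM for Dnajb9 to 286 CPM for Dnajb11.

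**Figure D3:**
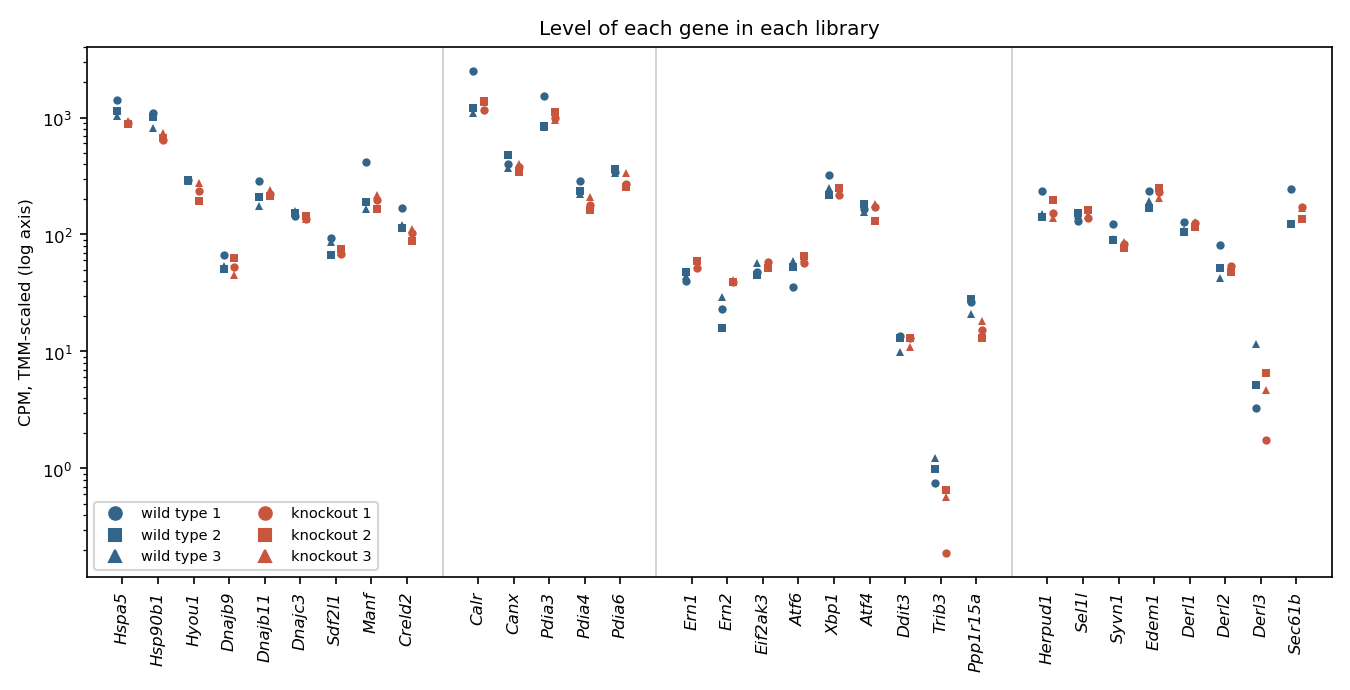
Level of each of the 31 genes tested in each library, in TMM-scaled CPM on a log axis, with wild type in blue and knockout in red and a symbol for each replicate number. From left to right the panels of genes are chaperones, lectins and isomerases, sensors and transcription factors, and degradation with the translocon. Wild type library 1 (blue circle) is the highest point for Calr, Pdia3, Manf and Sec61b.

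The lectin chaperones and disulfide isomerases lay lower or level. Calr, calreticulin, which binds glycoproteins and calcium, stood at 2493 CPM in wild type library 1 and at 1197 and 1084 CPM in the other wild type libraries. The knockout libraries, at 1155, 1380 and 1346 CPM, lay between these. Its log2 fold change was -0.30 (SE 0.37), and 0.14 without wild type library 1. Pdia3, the isomerase that works with calreticulin and calnexin, was likewise high in wild type library 1 alone, with 1515, 841 and 823 CPM against 990, 1124 and 961 CPM in the knockouts (log2 fold change -0.05, SE 0.30, and 0.26 without that library). Canx, calnexin, the membrane-bound lectin, differed by -0.16 (SE 0.18). The groups overlapped for all 3 genes of this lectin cycle.

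Pdia4 and Pdia6, isomerases that act with BiP, differed between the groups without overlap. Pdia4 was at 289, 233 and 223 CPM in the wild type mice and 179, 160 and 207 CPM in the knockouts, a log2 fold change of -0.45 (SE 0.18, edgeR adjusted p = 0.726). Pdia6 was at 341, 360 and 336 CPM in the wild type mice against 269, 254 and 333 CPM in the knockouts (-0.28, SE 0.17). In both genes knockout library 3 lay just under the wild type range. Both genes overlap an exon of another feature, a microRNA on the same strand for Pdia4 and Atp6v1c2 on the opposite strand for Pdia6.

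The genes of the IRE1 sensors lay higher. Ern1, IRE1 alpha, the form found in all tissues (chromosome 11, 106394650 to 106487852, minus strand), was at 39.9, 47.5 and 43.8 CPM in the wild type mice and 52.2, 59.8 and 59.1 CPM in the knockouts. The groups did not overlap, and the log2 fold change was 0.38 (SE 0.14, edgeR adjusted p = 0.710). Ern2, IRE1 beta (chromosome 7, 122169893 to 122186207, minus strand), had levels of 23.2, 15.8 and 29.5 CPM in the wild type mice and 39.1, 39.3 and 41.2 CPM in the knockouts. The knockout libraries were within a narrow range above all wild type libraries. Its log2 fold change of 0.80 (SE 0.24, edgeR adjusted p = 0.684) was the largest upward one of the 31.

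Ern2 is a gene of mucus-secreting cells, in the gut the goblet cells. The summed level of 11 goblet cell genes was 19681, 3579 and 5835 CPM in the wild type mice and 13965, 10805 and 9816 CPM in the knockouts. The goblet cell sum was thus highest in wild type library 1, where Ern2 lay below every knockout library. Of 10 goblet genes tested, 7 lay higher in the knockouts (median 0.32 on the log2 scale). Set against Muc2, the main mucin, Ern2 overlapped between groups, with a ratio of 0.00574, 0.0124 and 0.0128 in the wild type mice and 0.00846, 0.0128 and 0.0119 in the knockouts. The part of goblet cells in the difference of Ern2 was not tested.

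The other sensors overlapped between groups. Atf6 was at 35.9, 52.5 and 59.1 CPM in the wild type mice and 57.5, 65.2 and 62.7 CPM in the knockouts (log2 fold change 0.33, SE 0.20), with wild type library 1 the lowest, and its log2 fold change was 0.11 without that library. Eif2ak3, which encodes PERK, differed by 0.13 (SE 0.14). Xbp1, the transcription factor gene that IRE1 splices, was at 322, 219 and 250 CPM in the wild type mice and 217, 250 and 252 CPM in the knockouts (log2 fold change -0.14, SE 0.19, and -0.02 without wild type library 1).

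Downstream of PERK the genes went apart. Atf4, the factor translated when PERK is active, was level between groups, at 165, 183 and 156 CPM in the wild type mice and 172, 131 and 184 CPM in the knockouts (log2 fold change -0.04, SE 0.18). Ddit3, the death-linked factor CHOP, was also level, at 13.5, 13.0 and 9.83 CPM against 13.1, 12.9 and 10.9 CPM (log2 fold change 0.03, SE 0.22). Its exons overlap Mars and Gm4189 on the opposite strand. The second row named Ddit3, a feature of 105 bases within the same locus, held 0 to 4 counts per library, failed the filter and gave p = 0.40 in a two-sided exact permutation test, where 3 against 3 cannot go below 0.10.

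Ppp1r15a, GADD34, the phosphatase subunit that ends the block of translation (chromosome 7, 45522916 to 45526268, minus strand), lay lower without overlap. It stood at 26.3, 28.2 and 21.1 CPM in the wild type mice and 15.4, 13.1 and 18.1 CPM in the knockouts. Its log2 fold change of -0.70 (SE 0.21, edgeR adjusted p = 0.684) was of the same size without wild type library 1, at -0.70. DESeq2 gave it an adjusted p of 0.105, the smallest for any of these genes under any setting tried. Exons of Ppp1r15a overlap Tulp2 on the opposite strand. Trib3, a pseudokinase induced by ATF4 and CHOP, had 12, 24 and 27 counts in the wild type mice and 4, 14 and 13 in the knockouts, or 0.748, 0.991 and 1.22 CPM against 0.189, 0.653 and 0.567 CPM. The groups did not overlap, but so few counts gave a wide error (log2 fold change -1.06, SE 0.55).

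The genes of ER-associated degradation and the translocon were mostly level. Syvn1, the ubiquitin ligase HRD1, was the only one of the 8 without overlap, where 13% of all genes parted the groups in either direction. It stood at 122, 89.8 and 91.3 CPM in the wild type mice and 82.2, 76.3 and 86.9 CPM in the knockouts (log2 fold change -0.30, SE 0.17). Without wild type library 1 its log2 fold change was -0.19. Its partner Sel1l was flat, from 132 to 154 CPM in the wild type mice and 139 to 164 CPM in the knockouts (0.05, SE 0.14). Edem1, a lectin that hands misfolded glycoproteins to degradation, was at 234, 170 and 194 CPM against 232, 252 and 206 CPM (0.21, SE 0.18). Herpud1, a scaffold of the ligase complex, differed by -0.10 (SE 0.26), Derl1 by 0.10 (SE 0.14) and Derl2 by -0.22 (SE 0.25). Derl1 and Derl2 encode derlins of the channel through which proteins leave the ER. Sec61b, a subunit of the translocon through which proteins enter, was at 244, 124 and 122 CPM in the wild type mice and 172, 137 and 170 CPM in the knockouts (-0.04, SE 0.30), and at 0.34 on the log2 scale without wild type library 1.

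Derl3, the derlin of secretory cells such as plasma cells, had the widest spread relative to its mean between mice of a group. It had 3.30, 5.12 and 11.6 CPM in the wild type mice and 1.75, 6.53 and 4.67 CPM in the knockouts (log2 fold change -0.63, SE 0.63), with wide overlap. The summed level of 12 plasma cell genes ran from 1482 to 8133 CPM in the wild type mice and from 1059 to 5411 CPM in the knockouts. Wild type library 3 was the highest and knockout library 1 the lowest in both Derl3 and that sum. Without wild type library 3 the log2 fold change of Derl3 was 0.04.

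**Figure D4:**
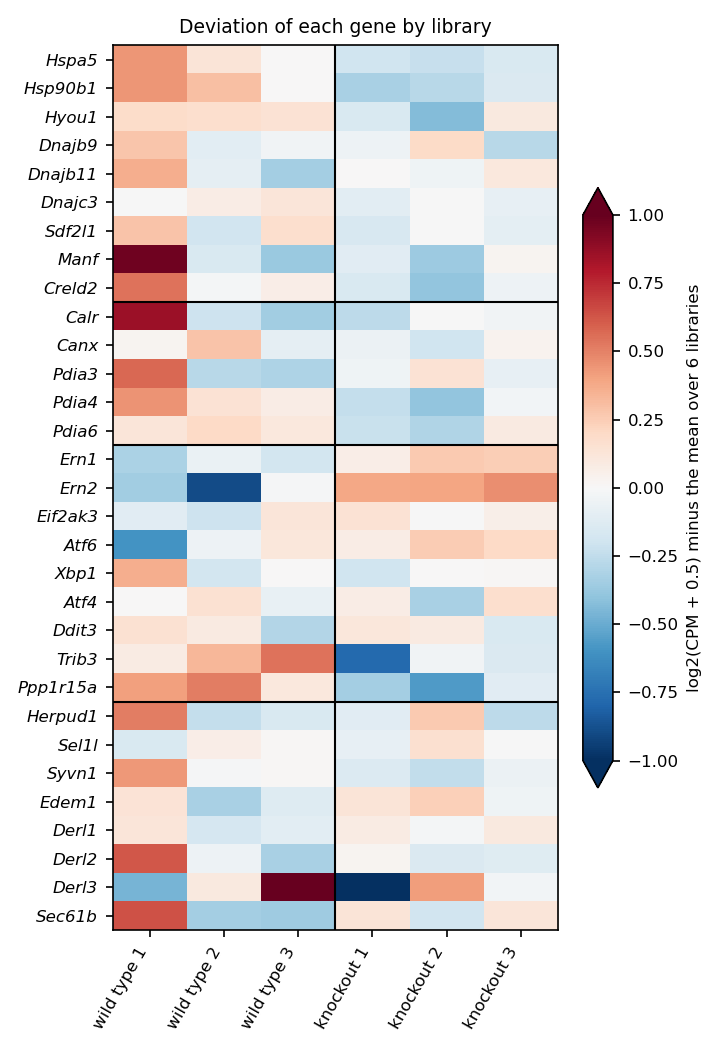
Deviation of log2(CPM + 0.5) from the mean over 6 libraries, for 31 genes (rows, by role) and 6 libraries (columns), with colours limited to 1 in either direction. Wild type library 1 is high for most chaperones and degradation genes and low for Ern1, Ern2 and Atf6.

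By library, the spread followed wild type library 1 for many of these genes. It was the highest library for 18 of 31 genes, where it was the highest for 26.2% of all genes tested. The median deviation of the 9 ER lumen chaperones from their mean over libraries was 0.37, -0.02 and 0.01 in the wild type mice and -0.15, -0.23 and -0.09 in the knockouts on the log2 scale. For the 9 sensors and transcription factors it was 0.01, -0.05 and 0.01 against 0.07, 0.00 and 0.06. The chaperone medians of all 3 knockout libraries lay below those of the wild type libraries. The sensor medians lay near 0 while members went both ways, with Ern1 and Ern2 above and Ppp1r15a and Trib3 below the wild type range in every knockout library, and 3 of these 4 had an unadjusted p under 0.05. The 31 genes took 0.894%, 0.870% and 0.838% of the counts in the wild type mice and 0.684%, 0.716% and 0.756% in the knockouts. On the TMM scale their summed level overlapped between groups, at 10870, 7760 and 7225 CPM in the wild type mice and 7112, 7373 and 7618 CPM in the knockouts, so this share depended on the scaling.

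Ratios of genes within a library do not depend on scaling between libraries. These pairs were chosen after their values were seen and are given as a description. The ratio of Hspa5 to Ern1, the chaperone to the sensor it restrains, was 35.2, 23.9 and 23.7 in the wild type mice and 17.3, 14.7 and 15.7 in the knockouts. The ratio of Ppp1r15a to Atf4 was 0.159, 0.154 and 0.136 in the wild type mice and 0.0891, 0.0996 and 0.0984 in the knockouts. Both ratios were lower in all 3 knockout libraries. For Hspa5 to Ern1 this follows from the levels given above, where each of these genes parted the groups, and is no separate result. Ppp1r15a too parted the groups by itself, while Atf4 was level. Set against Epcam, an epithelial surface marker, Hspa5 was at 0.651, 0.875 and 0.851 in the wild type mice and 0.397, 0.435 and 0.526 in the knockouts, without overlap. Here too Hspa5 parted the groups by itself, and Epcam leaned higher in the knockouts (log2 fold change 0.38, SE 0.31). This ratio is therefore no separate result either. The ratio of Ern1 to Epcam overlapped, at 0.0185, 0.0367 and 0.0359 against 0.0230, 0.0295 and 0.0334.

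**Figure D5:**
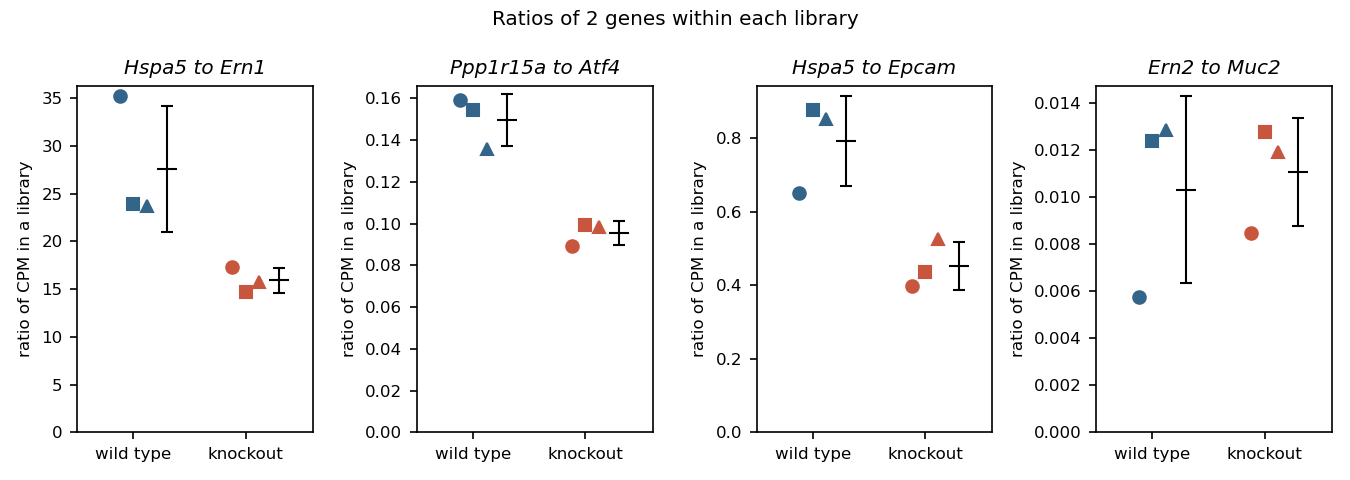
Ratios of the CPM of 2 genes within each library, for 3 wild type (blue) and 3 knockout (red) libraries, with symbols for replicate 1 (circle), 2 (square) and 3 (triangle) and black bars for the mean and SD. The groups part for Hspa5 to Ern1, Ppp1r15a to Atf4 and Hspa5 to Epcam, and overlap for Ern2 to Muc2.

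Per length of gene, in CPM per kilobase, folding machinery stood above the sensors. Calr was at 729 ± 359 (SD, n = 3) in the wild type mice and 592 ± 55.7 in the knockouts. Pdia3 (382 ± 142 and 370 ± 31.4) and Sec61b (380 ± 163 and 371 ± 45.8) followed and did not differ from each other beyond their spread. Hsp90b1 (344 ± 51.9 and 242 ± 15.8) and Hspa5 (325 ± 52.0 and 246 ± 6.58) came next, in an order that changed between groups. Among the sensors Eif2ak3 (11.1 ± 1.32 and 12.1 ± 0.644), Atf6 (6.78 ± 1.65 and 8.53 ± 0.542) and Ern1 (6.30 ± 0.546 and 8.21 ± 0.603) were far lower than Xbp1 (237 ± 47.2 and 215 ± 17.3). Ern2, at 7.83 ± 2.35, was close to Ern1 in the wild type mice and above it, at 13.7 ± 0.396, in knockout gut.

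The genes with an ERSE match lay lower as a group, but 0 of them passed the test. All 9 had a log2 fold change below 0, with a median of -0.30, and in 5 of them (Hspa5, Hsp90b1, Creld2, Pdia6 and Syvn1) the knockout libraries lay below all wild type libraries, beside 55.8% lower and 4.27% without overlap in this direction over all genes tested. Left out in turn, 1 library was enough to end this for 2 of the 9, Calr (0.14 without wild type library 1) and Derl3 (0.04 without wild type library 3). Of the 15 with a window and no exact match to either form of the element, 10 lay lower (median -0.05), and 3 parted the groups downward. An unadjusted p under 0.05 (edgeR) fell to 1 of the 9 and to 3 of the 15, where 6.84% of all genes had such a p. By p the genes with an ERSE match thus did not stand out from those without. Most of the 9 are chaperones, and the element was not tested apart from the role. Of the 9, Syvn1 (-0.30) and Derl3 (-0.63) act in degradation. The chaperones and isomerases Dnajb9 (-0.09), Sdf2l1 (-0.19), Pdia3 (-0.05) and Pdia4 (-0.45) had a window and no exact match to either form. The 2 genes with ERSE-II had a median of -0.04, with 1 lower and 1 higher.

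Other genes of the pathway, from 7 lists, differed by list. The medians of 6 lists lay between -0.12 and 0.08 on the log2 scale, and that of the ATF4 and amino acid response targets was -0.26. Of 130 tested, 0 passed edgeR's test and 7 had an unadjusted p under 0.05, where 6.84% of all genes had such a p. DESeq2 called 1, Creb3l3, where it called 0.824% of all genes, and limma-voom called 0. Of 21 genes of the translocon, signal peptidase and signal recognition particle, 7 lay higher and 14 lower (median -0.08), with Sec63, a translocon partner of BiP, at -0.23 (SE 0.14). Of 17 genes of N-glycosylation and glycan trimming, 9 lay higher and 8 lower (median 0.00), with Tusc3, an oxidoreductase subunit of the glycan-transferring complex, at 0.73 (SE 0.23). Tusc3 was at 29.0, 40.7 and 45.9 CPM in the wild type mice and 63.9, 76.6 and 51.1 CPM in the knockouts, without overlap. Of 15 tested genes of other isomerases and of oxidation, 9 lay lower (median -0.07), with Ero1b, an oxidase that recharges the isomerases, at -0.40 (SE 0.24). Of 17 co-chaperone and prolyl isomerase genes, 15 lay lower (median -0.12), with Fkbp14 at -0.79 (SE 0.40). The groups parted in 0 of these 17, where they did in 13% of all genes.

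The remaining lists held the genes nearest the regulators. Of 20 tested genes of ER-associated degradation outside the 31, 14 lay higher (median 0.08), with the ligase Rnf139 at 0.35 (SE 0.15). Of 20 further regulators 12 lay higher (median 0.08). An unadjusted p under 0.05 fell to 6, 5 higher and 1 lower, beside 4.54% higher and 2.3% lower over all genes. The lower one, Creb3l3, an ER-bound transcription factor of liver and gut, was at 16.8, 8.80 and 6.66 CPM in the wild type mice and 2.74, 0.980 and 2.40 CPM in the knockouts (log2 fold change -2.39, SE 0.54, edgeR adjusted p = 0.684). The groups lay well apart, although the gene was lowly expressed. Among the higher ones were 2 kinases that share their substrate with PERK. Eif2ak2, PKR, which senses double-stranded RNA and is induced by interferon, was at 65.7, 48.8 and 47.4 CPM against 85.3, 102 and 69.2 CPM (0.66, SE 0.21), and Eif2ak1, which senses heme, differed by 0.36 (SE 0.13). Creb3, a relative of Creb3l3, differed by 0.54 (SE 0.18).

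Of 20 ATF4 and amino acid response targets, 16 lay lower (median -0.26) and 0 had an unadjusted p under 0.05. Ddit4, an inhibitor of mTOR signalling, differed by -0.37 (SE 0.16) without overlap, Nupr1 by -0.59 (SE 0.27) and Cebpb, also a factor of inflammation, by -0.84 (SE 0.40). By library the median deviation of this list was -0.18, 0.19 and 0.27 in the wild type mice and -0.03, -0.25 and 0.06 in the knockouts, so wild type library 1 lay among the lowest. Neutrophil markers, 9 of 9 lower (median -1.29), ran from -0.56 in wild type library 1 to 0.93 in wild type library 2 on the same scale, and from -0.91 to -0.09 in the knockouts. Their part in the levels of Cebpb and Ppp1r15a was not tested.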

How the data were processed

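RNA-seq of 3 wild type and 3 knockout gut libraries was used, with groups and replicate numbers from the sample titles. The authors deposited an estimated count per gene, not normalized, as the values show, and of these 12.4% to 14.8% were fractional in each library. Alignment was with TopHat2 version 2.0.0 to mm10, per the submitters' processing notes, which give names only. How reads were counted, and by which annotation and strand mode, is not given in the sources used here. Counts were rounded. No libraries of a group were copies (chi-square per degree of freedom 33.8 to 247.4).

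Genes were tested with the quasi-likelihood method of edgeR 4.0.16 in R 4.3.3, using TMM factors without a block. The filterByExpr function (minimum count 10) left 16732 genes, over which p was adjusted by Benjamini-Hochberg with a threshold of 0.05. An SE is the fold change over the root of its F statistic. Over all genes, edgeR's common coefficient of variation was 0.395. DESeq2 1.42.0, limma-voom (limma 3.58.1), other scalings and low-count filters, the replicate number as a block, and fits without 1 library were alternatives. The fits were tested on simulated data. Coordinates are from GENCODE vM21 (GRCm38). Besides the overlaps named in the Results, exons of Manf overlap other features on both strands, among them Rbm15b on the same strand. Those of Dnajb9, Pdia3, Eif2ak3, Syvn1 and Derl2 overlap other features on the opposite strand.

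All 31 members are reported. Up to 4 genes of smallest p were named from each other list, and all the ratios were chosen with their values in view. The members and lists were chosen with earlier results of these data known.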

Additional observations from a re-analysis of the deposited data

How the results depend on the processing

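Under 8 other settings and 6 fits that each leave out 1 library, 0 of the 31 genes were called, and their median log2 fold change ran from -0.24 (without wild type replicate 2) to -0.02 (without wild type replicate 1). Over all genes the count called was 127 by DESeq2, 2 by limma-voom and 3 with no filter on low counts, beside 0 by edgeR. The sign held under every setting for 19 genes, 13 lower and 6 higher, and the other 12 crossed 0 without a call. Dnajb11 was at -0.011 with RLE factors, -0.025 with no scaling factors, -0.05 with upper quartile factors, -0.011 by DESeq2 and -0.0043 with no filter. Sel1l was at -0.046 and -0.012, and Ddit3 at -0.042 and -0.036, with no scaling and upper quartile factors. Pdia3 was at 0.012 and Sec61b at 0.038 with the replicate block, and Sec61b at 0.022 by limma-voom. Without 1 library each the range was -0.51 to 0.14 for Calr, -0.13 to 0.20 for Dnajb11, -1.11 to 0.035 for Derl3, -0.25 to 0.024 for Dnajb9, -0.40 to 0.070 for Derl2, -0.051 to 0.10 for Sel1l, -0.10 to 0.11 for Ddit3, -0.20 to 0.26 for Pdia3, -0.30 to 0.13 for Herpud1, -0.65 to 0.082 for Manf, -0.15 to 0.057 for Atf4 and -0.20 to 0.34 for Sec61b. The cause of these changes was not tested. Alternatives added after the data were seen counted genes whose groups did not overlap. Those with the knockouts above numbered 1 with library totals (where 7.48% of all genes lay so), 1 with library totals without mitochondrial genes (6.44%), and 2 to 7 without 1 library (10.9% to 25.8%), the 7 being 22.6% of the members beside 25.8% of all genes without wild type replicate 1. Those with the knockouts below numbered 7 to 10 over these settings, where 4.7% to 20.1% of all genes lay so. A shared replicate number is not stated to pair mice, so the numbers were not taken as pairs. Deviations of same-numbered libraries had correlations of 0.48, -0.14 and 0.01 across genes. These were taken within groups of 3 libraries and cannot show whether mice were paired. With the replicate block 0 genes and 0 of the 31 were called. The SEs of the 31 genes, 0.13 to 0.63 on the log2 scale, set the size of difference that 3 mice a group could show.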

Other observations

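Outside the 31 genes, 28 others held an ERSE match in a promoter window, and 11 of them passed the filter on low counts. Of these 8 lay lower in the knockouts (median -0.40 on the log2 scale), beside 55.8% lower over all genes tested. An unadjusted p under 0.05 fell to 3 (edgeR, 0 passing after adjustment), where 6.84% of all genes had such a p. Zfp57 and Tdrd9, both with such a p, were lowly expressed, at 4.18 and 4.70 CPM in the wild type mice and 1.48 and 0.647 CPM in the knockouts. Xlr3a and Xlr3b, also among the 8, were lower still, at 0.608 and 0.899 CPM against 0.218 and 0.850 CPM. Few of the 11 are ER genes. Ero1b, the ER oxidase, averaged 19.8 CPM in the wild type mice and 15.0 CPM in the knockouts, while Alg12, a mannosyltransferase of N-glycan assembly, was at 24.4 and 23.5 CPM. Hnrnpa3, an RNA-binding protein gene, was at 413 and 279 CPM (log2 fold change -0.57, SE 0.24), with overlap between the groups. The genes named here were chosen after their values were seen.

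Plasma cell markers other than immunoglobulins differed among themselves between libraries. Jchain, which joins antibody subunits, was at 159, 456 and 1004 CPM in the wild type mice and 93.1, 765 and 402 CPM in the knockouts. Mzb1, an ER chaperone partner of plasma and B cells, was at 14.3, 8.09 and 28.4 CPM against 7.66, 15.3 and 8.68 CPM.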
